A study of Mus musculus with 6 samples.

Results

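B cells that expressed Ms4a1 were examined in 6 single-cell RNA libraries of the mouse brain surface and skull. A deposited cell barcode counted as a B cell when it had at least 500 genes, at most 10% of its unique molecular identifiers (UMIs, 1 per captured mRNA molecule) on mitochondrial genes, and at least 1 UMI each of Cd79a, Cd79b and Ms4a1. It also had to lack any UMI of Cd3e, Csf1r and Pecam1, used here as markers of T cells, macrophages and endothelial cells. This rule found 512 B cells among 8804 barcodes that passed the gene and mitochondrial limits, of 17560 deposited. The UMIs of these 6 genes chose the cells, so their levels are no finding here.

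All libraries came from adult wild-type C57BL6 mice without treatment. The 4 cortical surface-associated (CSA) libraries, labelled as brain, hold cells freed with enzymes from the surface of the dorsal cortex. The 2 bone-associated (BA) libraries, labelled as dura or skull, hold cells of the membrane that lines the inside of the skull. Viable cells were sorted before capture on the 10x Genomics Chromium system. Each library pooled tissue of several mice, so replicates are libraries and differences from mouse to mouse are averaged within them. The preparations differed in dissection as well as in tissue, and these cannot be told apart. The mice were not perfused, so a B cell of either preparation may have come from blood or from tissue.

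B cells recognize antigen through the B cell receptor, an immunoglobulin of a heavy chain with a kappa or lambda light chain, which signals through the Cd79a and Cd79b proteins. Ms4a1 encodes CD20. B cells form in the bone marrow, pass through an immature stage marked by Cd93, and as naive follicular cells carry IgM together with IgD, the low-affinity IgE receptor CD23 (Fcer2a) and the complement receptor Cr2. Such cells recirculate between blood and lymphoid organs, and the transcription factor Klf2 takes part in the control of lymphocyte trafficking. Antigen, cytokines and the stress of preparing single cells all switch on immediate-early genes such as Fos, Egr1 and Nr4a1 within minutes.

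Before filtering, the libraries held 8408685 to 56169736 UMIs. The libraries CSA3 and CSA4 stood apart from the other 4 in several ways. Hemoglobin genes took 84.6% and 71.9% of all their UMIs, against at most 0.520% elsewhere, and 29.0% and 15.8% of the UMIs of their B cells. Of the B cells in CSA3 and CSA4, 12 and 10 had over 10% hemoglobin UMIs and held 99.0% and 98.1% of them. At least 1 UMI of the Y-linked genes Ddx3y, Eif2s3y, Kdm5d and Uty was seen in 30.9% and 32.3% of the kept barcodes of CSA3 and CSA4, and in 0.0799% to 0.269% of the others. Xist, which female cells express, had a UMI in 35.7% and 31.8% of the kept barcodes of CSA3 and CSA4 and in 84.5% to 94.4% of the others. In the other 4 libraries these values go against the equal numbers of male and female mice that the methods give for every library. Gm42418, a gene that overlaps ribosomal RNA, stood at 31335 and 31193 CPM (UMIs per 1000000 UMIs outside hemoglobin genes, the scale of all levels) in the B cells of CSA3 and CSA4 and at 6948 to 11691 in the others. Over all pairs of libraries 35 deposited barcodes were shared, none of them a B cell. Because 239 of the 254 CSA B cells came from CSA3 and CSA4, the fit across all genes was repeated on other cells and libraries. These were cells with Xist and no Y-linked UMI, cells with at most 10% hemoglobin UMIs, and fits with CSA1 and CSA2. No fit adjusted for Gm42418, and not every gene below is given under each fit.

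Markers that the rule did not use fitted the name. Ighm, the IgM heavy chain, had a UMI in 509 of the 512 cells. Its level ran from 2978 to 4988 CPM over the 6 libraries, against 34.0 to 100 in T cells of the same libraries, defined by Cd3e and Cd3d. Of the T or NK markers, 4 of 11 (Trbc1, Cd4, Cd8a and Thy1) had no UMI in any B cell, and the summed list reached 0 to 130 CPM in the CSA libraries and 16.4 to 16.7 in the BA libraries. Macrophage, microglia and monocyte markers summed to 194 to 865 in CSA and 177 to 370 in BA, led by Apoe, with none of the 10 at 0 in every library. Fibroblast markers reached 173 and 317 in CSA1 and CSA2 but 9.83 to 16.7 in the other 4. Neutrophil and dendritic markers summed to at most 63.9 and 6.56. The part of these other-type reads in the results was not tested.

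At the edge of the rule, 74 members had at least 1 of the 3 B cell genes at a single UMI, with a median of 9 Ighm UMIs. Just outside it were 84 barcodes with 2 of the 3 genes, of which 76 lacked Ms4a1 and 8 lacked Cd79b. All 84 had Ighm, with a median of 13 UMIs. A further 196 barcodes with all 3 genes were left out for an excluded gene, 183 of them for Pecam1. Those with Pecam1 numbered 10, 4, 33 and 57 in CSA1 to CSA4, beside 9, 6, 85 and 154 members. In BA1 and BA2 they numbered 38 and 41, beside 115 and 143 members. The part of this exclusion in the shares by library was not tested.

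How common B cells were differed more among the CSA libraries than between the preparations. B cells made up 1.21% (9 of 743), 0.479% (6 of 1252), 7.71% (85 of 1103) and 6.87% (154 of 2241) of the kept barcodes in CSA1 to CSA4. They made up 11.9% (115 of 963) and 5.72% (143 of 2502) in BA1 and BA2. The share in CSA1 and CSA2 was thus far below that in CSA3 and CSA4, which lay between the BA libraries. The mean was 4.07% ± 3.75 (SD, n = 4) in CSA and 8.83% ± 4.40 (SD, n = 2) in BA, a difference of -4.76 percentage points that did not exceed the spread between libraries (exact permutation test over libraries, two-sided p = 0.4, smallest possible p = 0.0667). With at most 5% mitochondrial UMIs the difference turned to 0.131 points (exact permutation p = 0.933), where 20 of the 115 and 6 of the 143 BA B cells met that limit. T cells followed a like order, with 2.83%, 1.36%, 8.07% and 7.14% in CSA1 to CSA4 and 9.97% and 10.6% in BA1 and BA2. The exact binomial intervals drawn in the plot of shares by library cover counting error only.

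**Figure D1:**
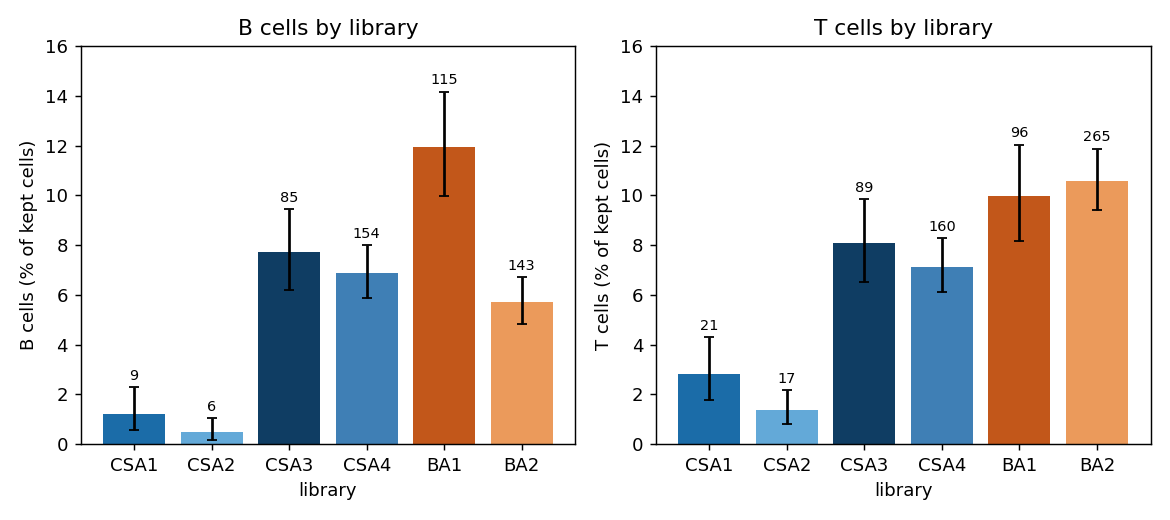
B cells and T cells as a percent of kept barcodes (vertical axis) in each of the 6 libraries (horizontal axis), with exact 95% binomial intervals and the number of cells above each bar. B cells were under 1.3% in CSA1 and CSA2 and between 5.72% and 11.9% in the other 4 libraries.

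Kappa UMIs (Igkc) outnumbered lambda UMIs (Iglc1 to Iglc3) in 411 of 512 B cells, and lambda led in 98 (19.1%, exact 95% interval 15.8 to 22.8). By library, lambda led in 11.1%, 16.7%, 12.9% and 23.4% of the B cells of CSA1 to CSA4 and in 18.3% and 19.6% of those of BA1 and BA2. The BA values lay within the CSA range. The lambda genes are near-identical and may share reads, and kappa-led cells still had a median of 13 lambda UMIs, so the split between Iglc1, Iglc2 and Iglc3 is uncertain. None of Igkc, Iglc1, Iglc2 and Iglc3 was called changed, with log2 fold changes of 0.12 to 0.83.

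Heavy chain transcripts were almost all IgM and IgD. IgG or IgA UMIs outnumbered IgM and IgD in only 3 of 512 cells. Jchain, which joins IgM and IgA units in secreting cells, had a UMI in 1 cell. Vpreb1 and Igll1, the surrogate light chain genes of pro-B and pre-B cells, had none, which allows up to 0.586% of cells with a UMI by the limit of 3 counts and does not limit the share that express these genes. Rag1 or Rag2, the recombinases of receptor assembly, had a UMI in 3 BA cells and no CSA cell.

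Ighd and Fcer2a were found in a larger share of B cells in each CSA library than in either BA library, whereas the shares with Cr2 overlapped. To compare cells of unequal depth (median 3764 to 5282 UMIs per B cell over the libraries), each cell was thinned to 1500 UMIs, which left out 1 CSA4 cell of 1281 UMIs. Hemoglobin UMIs counted in the 1500, so hemoglobin-rich cells of CSA3 and CSA4 kept fewer UMIs of other genes. Thinned, Ighm was seen in 90.6% and 92.2% of B cells in CSA3 and CSA4 and in 97.4% and 97.9% in BA1 and BA2. The part of hemoglobin in the thinned shares was not tested. Ighd, the IgD heavy chain, was seen in 44.4%, 66.7%, 43.5% and 51.0% of B cells in CSA1 to CSA4 and in 27.0% and 25.2% in BA1 and BA2 (unthinned, 70.9% of CSA and 48.1% of BA cells). Fcer2a was seen in 33.3%, 50%, 29.4% and 24.8% against 18.3% and 12.6% (unthinned, 50.4% and 26.4%). Neither gene overlapped between the groups, and no share test of 4 against 2 libraries can go below p = 0.0667 (exact permutation). Thinned T cells had no UMI of either gene, and unthinned 4 of 648 T cells had one of Ighd. Cr2 was seen in 11.1%, 0%, 1.18% and 7.19% of B cells in CSA1 to CSA4 and in 3.48% and 2.80% in BA1 and BA2.

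Ccr7, the receptor that guides lymphocytes towards lymph node T cell zones, went the other way in part of the libraries. Its shares were 44.4%, 66.7%, 20.0% and 19.6% in CSA1 to CSA4 and 53.9% and 73.4% in BA1 and BA2. CSA3 and CSA4 lay below all others, and CSA2 lay within the BA range.

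UMIs of genes of the immature stage were seen in T cells as well as in B cells. A UMI of Cd93, Vpreb1, Igll1, Rag1 or Rag2 was found in 0%, 0%, 3.53% and 2.61% of thinned B cells in CSA1 to CSA4 and in 5.22% and 9.79% in BA1 and BA2, almost all from Cd93. The same share in T cells, which should lack these genes, was 6.37% in BA and 1.39% in CSA. Before thinning the median depth of T cells was 6342 UMIs in BA and 6448 in CSA, and that of B cells 4679 and 3858. At 3000 UMIs per cell the pooled BA shares were 14.6% of B cells and 10.6% of T cells. Unthinned, they were 21.7% and 21.0% of B cells and 11.5% and 16.6% of T cells in BA1 and BA2. The part of free RNA in these shares was not tested. Between CSA3 with CSA4 and the BA libraries the difference was -4.43 points (exact permutation test, two-sided p = 0.333, the smallest that 2 against 2 libraries can give). Cd93 is also expressed by endothelial cells.

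Vpreb3, which stays on from the pre-B stage into immature and transitional cells, had no UMI in any T cell. It was seen in 11.1%, 16.7%, 36.5% and 43.8% of thinned B cells in CSA1 to CSA4 and in 59.1% and 59.4% in BA1 and BA2. As a level, Vpreb3 was 345, 57.7, 1247 and 1030 CPM in CSA1 to CSA4 and 921 and 1170 in BA1 and BA2. The level in CSA3 and CSA4 was not below that in BA (log2 fold change 0.24 ± 0.19 SE, edgeR quasi-likelihood adjusted p = 0.44), so no order is read from the share in CSA3 and CSA4, which goes against the level. CSA1 and CSA2 alone were lower than BA by 2.44 on the log2 scale (adjusted p = 0.018, edgeR quasi-likelihood), which turns the direction and rests on 15 cells.

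The cycling genes Mki67 or Top2a were found in 1 of 253 thinned CSA cells and 4 of 258 BA cells, and in 3.48% and 3.60% of T cells. Unthinned, 0.394% of CSA and 5.43% of BA B cells had such a UMI.

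**Figure D2:**
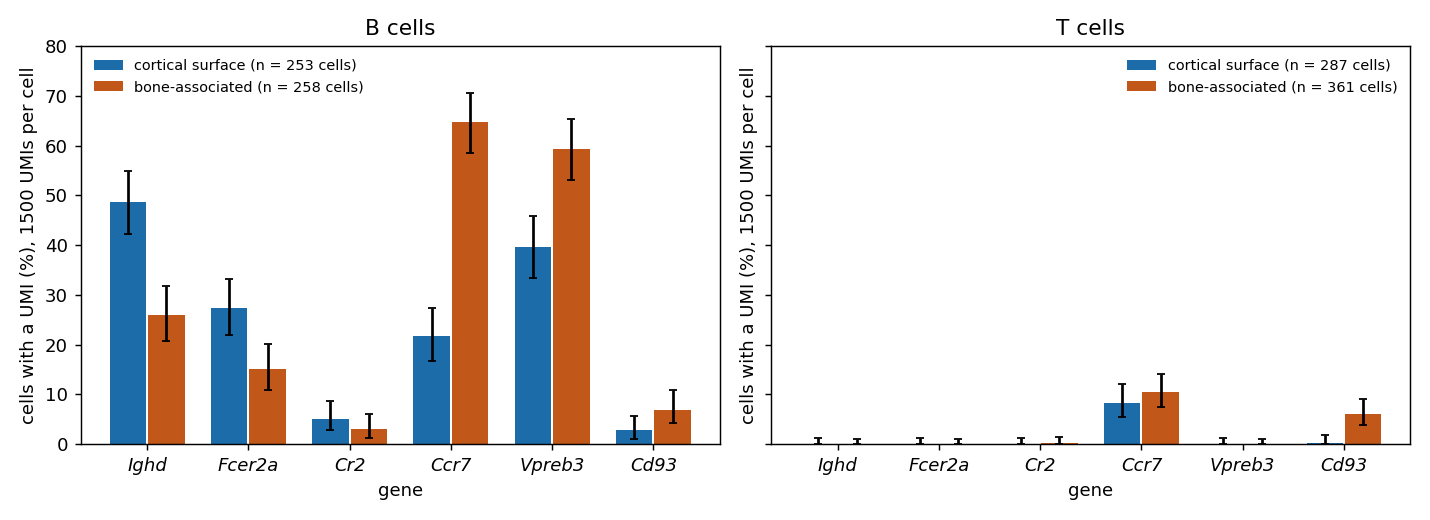
Percent of B cells (left) and T cells (right) with a UMI of each gene after thinning every cell to 1500 UMIs, for CSA and BA cells pooled, with exact 95% binomial intervals that cover counting error over cells and not the spread between libraries. Ighd and Fcer2a were higher in CSA B cells, and Ccr7 stood at 21.7% of CSA and 64.7% of BA B cells.

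For the levels of all genes, UMIs were summed over the B cells of a library and compared between CSA3, CSA4, BA1 and BA2, the libraries with at least 10 B cells, by edgeR's quasi-likelihood test. A gene was called when its log2 fold change, CSA over BA, was 1.3 or more in size and its p, adjusted by the Benjamini-Hochberg method, was under 0.05. A summed level cannot tell fewer B cells with a transcript from fewer transcripts per B cell. Of 4817 genes tested, 365 (7.58%) were called, 125 higher in CSA (2.59%) and 240 higher in BA (4.98%), and the median log2 fold change of all genes was -0.01. With CSA1 and CSA2 added, 77 genes were higher in CSA (1.6%) and 155 in BA (3.23%), or 4.83% of those tested, of which 75 and 149 were among the first calls. Restricted to cells with Xist and no Y-linked UMI, the 4 libraries gave 117 (2.37%) and 178 (3.61%) calls, or 5.98% in all. Without the 22 hemoglobin-rich cells they gave 111 (2.31%) and 251 (5.22%), or 7.53% in all. Set against BA without CSA3 and CSA4, the 15 cells of CSA1 and CSA2 gave 5 (0.0905%) and 4 (0.0724%) calls, or 0.163% in all. By adjusted p alone, with no fold limit, 283 genes (5.88%) were higher and 401 (8.32%) lower in CSA, or 14.2% in all. Leaving out CSA3 cut the counts to 61 and 86, leaving out CSA4 to 79 and 122, leaving out BA1 gave 92 and 186, and leaving out BA2 gave 200 and 198. Of the calls, 51 of the 125 (40.8%) and 125 of the 240 (52.1%) also had no overlap between the 4 CSA and 2 BA libraries, beside 6.66% and 15.7% of all genes tested. Nothing is read from this excess, because 125 of 125 and 239 of 240 calls were already apart in the 4 libraries that chose them. Of all genes apart in those 4 libraries, 321 of 1014 and 754 of 1663 were apart in all 6.

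Ltb and Klf2 were higher in all 4 CSA libraries than in either BA library, as were 6.66% of all genes tested. Ltb (chromosome 17, 35194439 to 35196320, GRCm38), which encodes lymphotoxin beta, a membrane ligand that shapes lymphoid tissue, was at 863, 836, 1035 and 900 CPM in CSA1 to CSA4 and 184 and 181 in BA1 and BA2. The log2 fold change was 2.53 ± 0.21 SE (adjusted p = 2.7e-12). It also passed in CSA1 and CSA2 alone (2.04, adjusted p = 0.0042, edgeR quasi-likelihood).

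Klf2 (chromosome 8, 72319033 to 72321656, GRCm38) stood at 1510, 2105, 1159 and 1091 in CSA1 to CSA4 and at 275 and 487 in BA1 and BA2. Here CSA1 and CSA2 were the highest libraries. The log2 fold change was 1.68 ± 0.22 SE (adjusted p = 3.0e-07), and 2.04 in CSA1 and CSA2 alone (adjusted p = 0.0041, edgeR quasi-likelihood).

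Bmyc, a relative of the Myc family, was at 129, 115, 97.1 and 104 in CSA and at 8.19 and 20.9 in BA (log2 fold change 2.87 ± 0.41 SE, adjusted p = 1.9e-06). Cd48, an adhesion and costimulatory molecule, was at 173, 57.7, 143 and 131 against 32.8 and 51.6 (1.80 ± 0.31 SE, adjusted p = 5.6e-05). For Cd48 the lowest CSA library, CSA2, exceeded BA2 by a small margin. A single UMI is worth 21.6 and 28.8 CPM in CSA1 and CSA2, so their low values are coarse.

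The receptor genes moved with smaller folds. Ighd stood at 539, 548, 686 and 660 in CSA1 to CSA4 and at 361 and 233 in BA1 and BA2 (1.32 ± 0.21 SE, adjusted p = 1.8e-05), just past the fold limit and under it without BA2 (1.1) or CSA4 (1.26). With all 6 libraries Ighd was at 1.17, under that limit, at an adjusted p of 0.0040 by edgeR's quasi-likelihood test. Fcer2a was at 388, 461, 285 and 255 against 134 and 109. Its log2 fold change of 1.28 ± 0.24 SE (adjusted p = 1.3e-04) just missed the limit, and with all 6 libraries it was called at 1.44. Cr2 was at 86.3, 0, 63.7 and 76.2 against 39.3 and 13.9 (1.59 ± 0.41 SE, adjusted p = 0.0058), and its call was lost without CSA3 (1.72), CSA4 (1.33) or BA2 (1.07). Tnfrsf13b, which encodes TACI, a receptor for the survival factors BAFF and APRIL, was at 259, 144, 261 and 224 against 113 and 100 (1.31 ± 0.24 SE, adjusted p = 1.3e-04). In cells with Xist and no Y-linked UMI, Tnfrsf13b was at 0.93 and not called, and its call was also lost without CSA3 (1.24) or BA2 (1.29).

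Of the 13 mature follicular genes examined, all tested, 4 were called higher (Ltb, Klf2, Cr2, Ighd) and 2 lower (Ccr7 and Satb1), with a median log2 fold change of 0.90 beside -0.01 for all genes. Of all genes tested, 2.59% were called higher and 4.98% lower. With all 6 libraries 4 were higher (Ltb, Klf2, Cr2, Fcer2a) and none lower, with a median of 0.89, beside 1.6% and 3.23% of all genes. Of 18 homing and adhesion genes examined, 15 were tested, of which Ccr7 and Cxcr4 were called lower, beside 4.98% of all genes. Their median log2 fold change was -0.01.

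Some of the largest fitted increases rested on few cells. Among the 10 largest outside hemoglobin genes, Alas2, Ube2l6, Bpgm, Isg20 and Fam220a lost their call or their test without the hemoglobin-rich cells. Alas2, the first enzyme of heme synthesis in red cells, was at 492 and 269 in CSA3 and CSA4, 0 in CSA1 and CSA2, and 1.64 and 0 in BA1 and BA2. Bpgm, a red cell enzyme that sets oxygen affinity, was at 643 and 277 in CSA3 and CSA4, 0 in CSA1 and CSA2, and 13.1 and 13.9 in BA1 and BA2. All 6 erythroid genes tested were called higher, 4 of them hemoglobin genes, and these 4 remained called without those cells. Fam220a then had a log2 fold change of -0.47 in place of 2.90. Pglyrp1, Bmyc, Pxdc1 and Hist1h4d kept their calls. Pglyrp1, which encodes a bacterial wall recognition protein, was at 21.6, 57.7, 69.8 and 69.7 against 13.1 and 5.58 (3.05 ± 0.48 SE, adjusted p = 9.6e-06). Pxdc1 was at 21.6, 28.8, 75.9 and 58.4 against 14.8 and 6.97 (2.74 ± 0.47 SE, adjusted p = 4.3e-05). Hist1h4d, one of many near-identical histone H4 genes whose reads may be shared, was at 0, 28.8, 100 and 32.4 against 1.64 and 8.37, and its call was lost without BA1 (2.88).

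**Figure D3:**
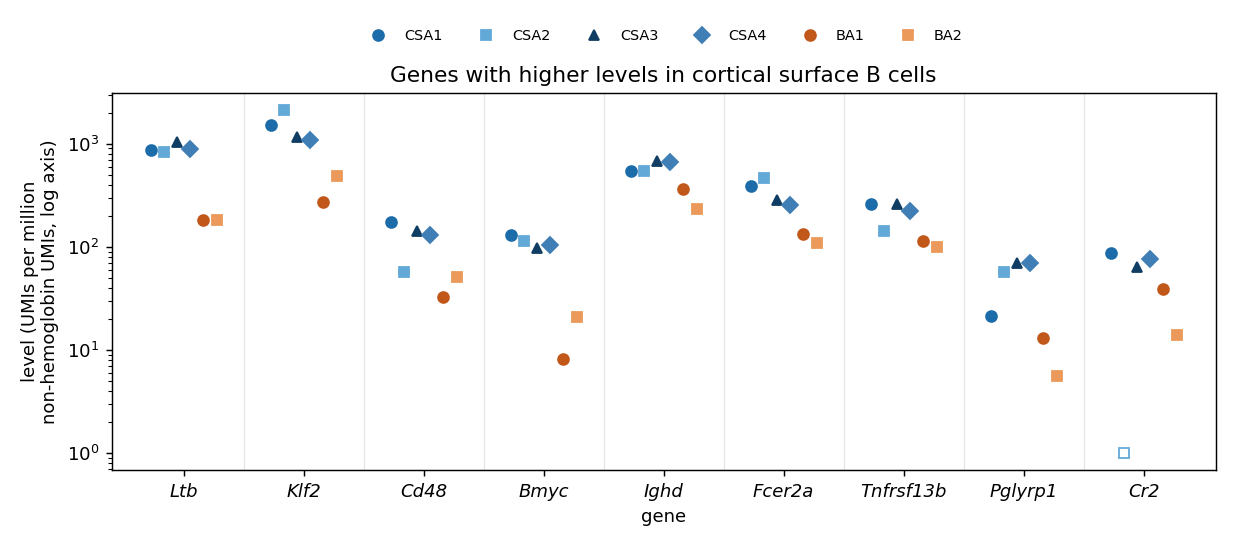
Level of genes higher in CSA B cells, in CPM on a log axis, 1 point per library; an open point at 1 stands for a level of 0. For Ltb the 4 CSA libraries ran from 836 to 1035 and the BA libraries stood at 184 and 181.

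Among the genes that were lower in CSA B cells, one set had a lower level in each CSA library than in either BA library, while in another CSA1 or CSA2 reached the BA range. Nr4a2, an orphan nuclear receptor of the immediate-early class, had no UMI in any CSA library and stood at 60.6 and 71.1 CPM in BA1 and BA2. Over CSA3 and CSA4 together a floor of 3 counts makes it at least 20.9-fold lower. Slco4a1, an organic anion transporter, also had no CSA UMI and was at 41.0 and 58.6 in BA, at least 15.9-fold lower in CSA3 and CSA4 by the same floor. In CSA1 and CSA2 a count of 0 allows up to 64.7 and 86.5 CPM, so neither gene is shown to be below BA there. Klf10, a transcription factor of the response to TGF-beta, had 3 UMIs in the B cells of CSA3 and CSA4 together against 88 in BA, a ratio of 20.9 (95% counting interval 6.93 to 103).

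Dusp5, a phosphatase that inactivates ERK, was at 43.2, 57.7, 3.03 and 11.3 in CSA1 to CSA4 and at 154 and 177 in BA1 and BA2 (log2 fold change -4.14 ± 0.43 SE, adjusted p = 1.0e-09). Dtx1, a regulator of Notch signalling that is high in marginal zone B cells, was at 21.6, 0, 18.2 and 16.2 against 73.8 and 93.4 (-2.15 ± 0.42 SE, adjusted p = 2.7e-04). Cd86, a costimulatory ligand of T cells, was at 0, 57.7, 21.2 and 9.73 against 63.9 and 75.3 (-2.16 ± 0.46 SE, adjusted p = 8.0e-04), and its call was lost without CSA4 (-1.66). Bcl2l11, which encodes the death-promoting protein BIM, was at 0, 28.8, 6.07 and 19.5 against 67.2 and 40.4 (-1.72 ± 0.49 SE, adjusted p = 0.014), with the call lost without CSA3 (-1.27) or BA1 (-1.32). Insig1, a brake on cholesterol synthesis, was at 0, 28.8, 3.03 and 1.62 against 54.1 and 48.8 (-4.33 ± 0.69 SE, adjusted p = 1.3e-05). None of these 5 overlapped between the groups, which is how the set was formed, and 15.7% of all genes tested were likewise lower in every CSA library. In CSA1 a count of 0 allows up to 64.7 CPM, and in CSA2 up to 86.5. So Cd86, Bcl2l11 and Insig1 in CSA1 and Dtx1 in CSA2 are not shown to be below both BA libraries. In CSA1 and CSA2 alone none of the 5 was called, with log2 fold changes of -1.65 to -2.90 and adjusted p of 0.28 to 0.52 by edgeR's quasi-likelihood test.

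The other set split the CSA libraries. Nr4a1 (chromosome 15, 101254269 to 101274795, GRCm38), which antigen receptor signals induce, was at 367, 1038, 21.2 and 34.0 in CSA1 to CSA4 and at 669 and 859 in BA1 and BA2. CSA3 and CSA4 were 23.7-fold lower than BA (log2 fold change -4.56 ± 0.29 SE, adjusted p = 4.0e-16), and CSA2 was the highest library of all. In CSA1 and CSA2 alone the log2 fold change was -0.37 (adjusted p = 0.76, edgeR quasi-likelihood).

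Fos, a subunit of AP-1, was at 43.2, 1124, 54.6 and 22.7 in CSA1 to CSA4 and at 83.6 and 304 in BA (-2.35 ± 0.41 SE, adjusted p = 6.1e-05), and the call was lost without CSA4 (-1.80) or BA2 (-1.06). Jund, another AP-1 subunit, was at 2999, 2306, 1029 and 950 against 2375 and 2901 (-1.29 ± 0.19 SE, adjusted p = 4.4e-06, just under the fold limit). Cd83, a surface marker of activated B cells, was at 690, 778, 94.1 and 79.4 against 303 and 708 (-2.44 ± 0.29 SE, adjusted p = 4.4e-08). Ccr7 was at 755, 1153, 194 and 198 against 587 and 1039 (-1.92 ± 0.24 SE, adjusted p = 1.1e-07). Irf4, a transcription factor of activated and plasma cells, was at 194, 144, 30.3 and 25.9 against 125 and 204 (-2.43 ± 0.35 SE, adjusted p = 1.9e-06). In each of these genes CSA3 and CSA4 were below both BA libraries, while CSA1 or CSA2 reached the BA range or exceeded it. For Fos, as for Nr4a1, that was CSA2 alone, which has 6 B cells, and CSA1 lay below both BA libraries.

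With CSA1 and CSA2 alone set against BA, the called genes Fos, Egr1, Fosb, Cd83, Ccr7, Cd274, Bcl2a1b, Bhlhe41, Gla and Acta2 had positive log2 fold changes of 0.02 to 1.99, and none of them passed the test. Egr1, a zinc finger transcription factor, was at 21.6, 807, 15.2 and 34.0 in CSA1 to CSA4 and 24.6 and 173 in BA1 and BA2.

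The immediate-early list of 21 genes followed this split only in part. Of 19 tested, 8 were called lower (Nr4a1, Atf3, Fos, Egr3, Egr1, Fosb, Dusp2 and Ier2) and none higher, with a median log2 fold change of -1.26. Of all genes 4.98% were called lower, at a median of -0.01. With DESeq2, Nr4a1, Egr3, Fosb and Ier2 kept their calls, and Atf3 (adjusted p = 0.45), Fos (0.26), Egr1 (0.59) and Dusp2 (0.51) lost them. With all 6 libraries 4 were lower (Atf3, Egr3, Nr4a1, Dusp2), with a median of -0.53, beside 3.23% of all genes. Without CSA3 and CSA4 none was called, with a median of 0.09, in a fit that called 0.163% of all genes at a median of -0.22. The list summed to 5804, 13550.5, 3684 and 3166 CPM in CSA1 to CSA4 and to 6392 and 10673 in BA1 and BA2. By this sum CSA1 lay below both BA libraries and CSA2 above both. In T cells of the 4 libraries 14 of 20 tested were called lower, beside 8.21% of all genes. T cell levels of Nr4a1 were 128, 202, 5.38 and 14.3 in CSA1 to CSA4 and 463 and 358 in BA1 and BA2. There all 4 CSA libraries lay below both BA libraries, and CSA3 and CSA4 were again the lowest. In cells with Xist and no Y-linked UMI 9 of the list were called lower and Klf6 higher, beside 3.61% and 2.37% of all genes. Without the hemoglobin-rich cells 9 were called lower, beside 5.22% of all genes. The part of the other features that set CSA3 and CSA4 apart was not tested.

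**Figure D4:**
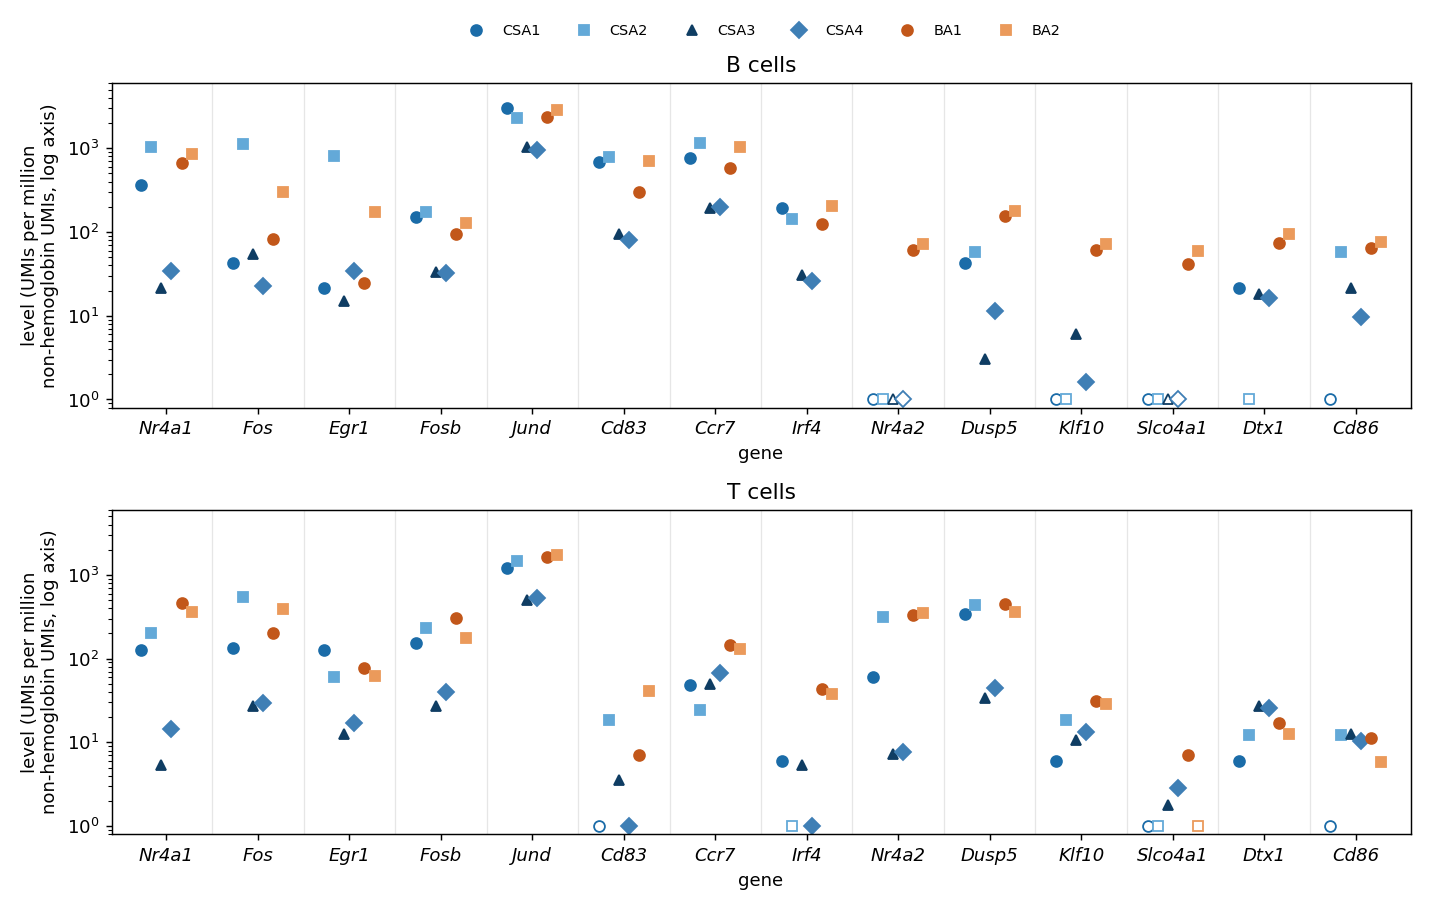
Level of genes lower in CSA B cells, in B cells (top) and T cells (bottom), in CPM on a log axis with 1 point per library; an open point at 1 stands for a level of 0. Nr4a2 and Slco4a1 had no UMI in any CSA library, whereas for Nr4a1, Cd83 and Ccr7 in B cells CSA3 and CSA4 were below all other libraries.

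Gene groups of B cell function differed in how many members were called, beside 2.59% of all genes called higher and 4.98% lower. Of the 19 genes examined of the B cell receptor and its co-receptors, all tested, Ighd and Cr2 were called higher and none lower, with a median log2 fold change of 0.21. Ighm itself stood at 2978, 4988, 3851 and 3564 in CSA1 to CSA4 and at 4610 and 4809 in BA1 and BA2 (-0.22 ± 0.19 SE, adjusted p = 0.49). None of the 10 MHC class II genes, which present antigen to helper T cells, was called, with a median of 0.15. Cd74, the invariant chain that escorts class II molecules, was at 14672, 15021, 10758 and 11230 in CSA and 13898 and 13874 in BA.

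Among 19 B cell transcription factors, Klf2 was called higher and Irf4 lower, with a median of -0.08, beside 2.59% and 4.98% of all genes. Ebf1, which sets B cell identity, was at 1874 to 2028 in CSA and at 1847 and 2160 in BA (0.06 ± 0.19 SE, adjusted p = 0.87). Foxp1, a B cell transcription factor, did not overlap between the groups, at 475, 577, 856 and 738 in CSA and 1206 and 1036 in BA, but was not called (-0.36 ± 0.19 SE, adjusted p = 0.21). Of all genes tested, 15.7% were likewise lower in every CSA library.

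Of 7 costimulation genes tested, Cd48 was called higher and Cd83, Cd86 and Cd274 lower, with a median of -0.35. Over all genes 2.59% were called higher and 4.98% lower. With all 6 libraries Cd48 stayed higher and only Cd86 lower, at a median of -0.05, beside 1.6% and 3.23% of all genes. With CSA1 and CSA2 alone none was called and the median was 0.26. Of 7 survival receptors and Bcl2 family genes tested, Tnfrsf13b was called higher and Bcl2l11, Tnfrsf1b and Bcl2a1b lower, with a median of -0.25. In cells with Xist and no Y-linked UMI none of these 4 was called, and with all 6 libraries Bcl2l11 alone was called. Bcl2a1b has near-identical copies, so its reads are uncertain.

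Of 7 marginal zone and B-1 genes tested, none was called higher, and Dtx1 and Bhlhe41, a repressor high in B-1 cells, were called lower. Over all genes 2.59% were called higher and 4.98% lower. With all 6 libraries Dtx1 alone was called in this list. Bhlhe41 was at 21.6, 173, 21.2 and 16.2 against 60.6 and 64.1, so CSA2 lay above BA. None of the 6 immature and transitional genes was called, with a median of -0.82. Sox4 was called lower with all 6 libraries (-1.38), and Sox4 (-1.33) and Cd93 (-2.46) in cells with Xist and no Y-linked UMI. Cd24a, which falls as B cells mature, was at 324, 288, 537 and 454 against 829 and 742, lower in every CSA library but not called (-0.54 ± 0.20 SE, adjusted p = 0.063). The same order held for 15.7% of all genes tested.

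Of 12 heat shock genes, 9 were tested and Hsph1 alone was called lower, with a median of -0.83. Over all genes 2.59% were called higher and 4.98% lower. Hsph1 was at 152 in BA1 but 34.9 in BA2, and without BA1 its log2 fold change was -0.02. Hsp90ab1, an abundant chaperone, was at 1100, 1096, 1162 and 1161 in CSA and 2453 and 2077 in BA, lower in every CSA library at a fold under the limit (-0.83 ± 0.19 SE, adjusted p = 0.0017). That order was shared by 15.7% of all genes tested. Of 9 interferon-induced genes tested only Isg20 was called higher, and it was not tested without the hemoglobin-rich cells. None of 4 proliferation, 2 age-associated and 2 pro- and pre-B genes tested was called. In cells with Xist and no Y-linked UMI both pro- and pre-B genes were called lower, Myb at -2.28 (adjusted p = 0.040) and Akap12 at -1.39 (adjusted p = 0.015, edgeR quasi-likelihood). In the plasma cell list Irf4 was called lower of 4 tested, and none of 9 germinal centre genes passed the filter on detection in over 10% of cells.

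Ttr and Acta2, markers of other cell types, were called lower. Ttr, made in bulk by choroid plexus, was at 0, 0, 3.03 and 30.8 in CSA and at 187 and 80.9 in BA, and in T cells at 8.97 to 22.9 in CSA and 126 and 49.5 in BA. Acta2, of smooth muscle, was at 64.7, 86.5, 0 and 0 in CSA and 29.5 and 23.7 in BA. The summed choroid plexus, glia and neuron markers reached 21.6 to 64.9 in CSA and 159 to 218 in BA, and the endothelial and mural markers 30.8 to 151 and 54.1 to 66.9. The part of free RNA in these values was not tested.

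To see which differences were particular to B cells, the preparation difference was compared with that of T cells from the same libraries in a single model with the library as a block. Of 6325 genes, 168 (2.66%) differed between B and T cells, 129 with a larger (2.04%) and 39 with a smaller (0.617%) log2 fold change of CSA over BA in B cells. Of the B cell calls, 19 of the 125 and 18 of the 240 were among them. In T cells alone 674 genes (10.7%) were called, 155 higher (2.45%) and 519 lower (8.21%) in CSA. Among the B cell calls, 29 of the 125 and 128 of the 240 were called the same way in T cells. With all 6 libraries 159 genes differed between B and T cells, and in cells with Xist and no Y-linked UMI 93 did.

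Ltb and Bmyc were raised in B cells more than in T cells. Ltb in T cells was at 644, 770, 761 and 776 against 354 and 474, and the difference between the cell types was 1.60 ± 0.18 SE on the log2 scale (adjusted p = 4.4e-06). Bmyc differed by 3.14 ± 0.48 SE (adjusted p = 1.8e-04). Klf2 (0.99 ± 0.19 SE, adjusted p = 0.0027) stayed under the fold limit, and Cd48 (0.60 ± 0.31 SE, adjusted p = 0.37) was not shown to differ.

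Dtx1, Cd86 and Klf10 were lowered in B cells more than in T cells. Dtx1 differed by -3.12 ± 0.53 SE (adjusted p = 6.3e-04), Cd86 by -2.82 ± 0.70 SE (adjusted p = 0.020) and Klf10 by -3.0 ± 0.81 SE (adjusted p = 0.032). Cd86 and Dtx1 were low in T cells, at no more than 26.9 CPM in any library. For Nr4a1 (0.58 ± 0.48 SE, adjusted p = 0.64) and Fos (1.04 ± 0.44 SE, adjusted p = 0.25) a difference between B and T cells was not shown. Other immediate-early genes did differ. Of 20 of the list in this test, 5 had a called difference of B minus T cells above 0, among them Atf3 (4.28), and none below 0. The median log2 fold change of the list was -1.26 in B cells and -1.86 in T cells. For a gene lower in CSA in both cell types, a difference above 0 is a smaller drop in B cells. Of all genes, 2.04% were called above 0 and 0.617% below 0.

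**Figure D5:**
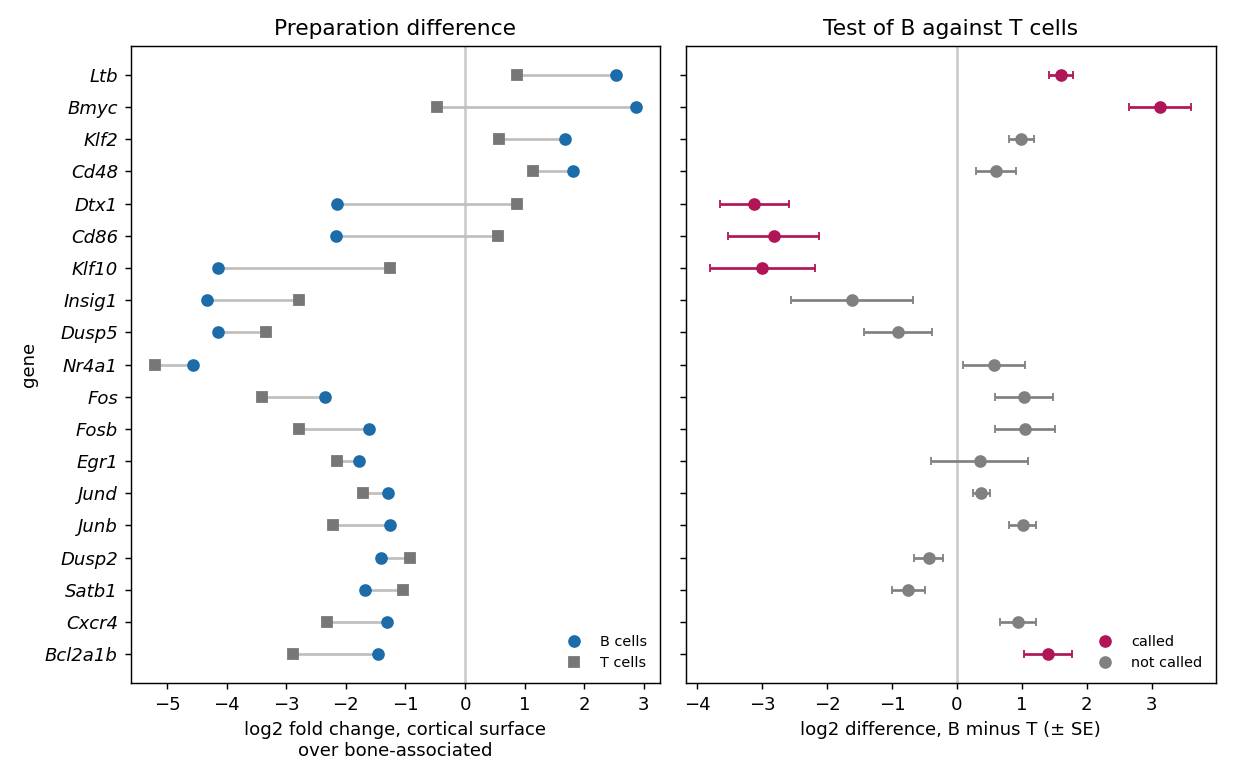
Left, the log2 fold change of CSA over BA (horizontal axis) for 19 genes (vertical axis) in B cells (circles) and T cells (squares) of CSA3, CSA4, BA1 and BA2; right, the log2 difference of B minus T cells with its SE. The 6 called genes in red include Ltb and Bmyc above 0 and Dtx1, Cd86 and Klf10 below it.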

How the data were processed

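The authors deposited, for each library, a matrix of raw UMI counts per gene and barcode, aligned to mm10 with Cell Ranger (version 3 in the submitters' processing notes, 6.1.2 in the file headers). They applied no normalization to these counts. The protocol in the labels names papain and the ventricular-subventricular zone as the tissue, the methods collagenase D and dispase II. Libraries were assigned by title and tissue.

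UMIs of the B cells of a library were summed and tested with edgeR 4.0.16 (quasi-likelihood, TMM) in R 4.3.3. The fit took libraries with at least 10 B cells and genes detected in over 10% of the B cells of either group, 4817 in all. The rule genes and mitochondrial genes counted in totals but were not tested. Every adjusted p without another name is from this test, with 2 residual degrees of freedom. B and T cells were compared as an interaction with the library as a block. Fitted folds use TMM library sizes and differ a little from ratios of the levels, which are UMIs per 1000000 UMIs (CPM) outside 8 hemoglobin genes. Shares were compared by exact permutation over libraries. Intervals and floors cover counting error only. No doublet caller or correction for free RNA was used, and B cells over 3 times the median UMI count of their library, as possible doublets, were left out as an alternative. The self-test ran on simulated counts.

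Coordinates are from GENCODE (GRCm38, the mm10 build) by Ensembl identifier. The members and gene lists were chosen with earlier results of these data known, and some genes are not reported here and were left out of the lists. Named genes are the markers, up to 6 called and the 3 highest members of each list, the 10 largest changes each way with no overlap in the tested libraries and 50 or more UMIs on the higher side, the 5 largest interactions, and the genes of the chain and stage classes. Alternatives were DESeq2 1.42.0, upper-quartile normalization, gene and cell filters, thinning to 1500 or 3000 UMIs, and subsets of libraries. Added later were the fits with all 6 libraries, with a replicate block, with Xist-positive cells and without hemoglobin-rich cells.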

Additional observations from a re-analysis of the deposited data

Results flagged for a closer look

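In 12 of 70 sets of values with 4 CSA values, 1 library lay far from the other 3 (gap over range above Dixon's 95% critical value for 4 samples, which chance passes in about 1 of 20 groups). CSA2, with 6 B cells, was the highest library for Fos (gap over range 0.971, at 1124 CPM), Egr1 (0.976, at 807), Junb (0.835, at 1960), Gla (1, at 144), Insig1 (0.895, at 28.8), Bhlhe41 (0.966, at 173), Cd274 (0.898, at 490), Cxcr4 (0.894, at 375) and Mzb1 (0.883, at 432). CSA1, with 9 B cells, was the highest for Grasp (0.850, at 21.6) and Tcf7l2 (0.850, at 21.6), each a single UMI. CSA4 was the highest for Ttr (0.901, at 30.8). The lone values in CSA1 and CSA2 rest on few UMIs, since 1 UMI is worth 21.6 and 28.8 CPM there.

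Of the named genes, 18 had a preparation difference that was called different in B and T cells by the interaction test of edgeR on the 4 libraries. The log2 difference of B minus T cells was above 0 for Ltb (1.60), Bmyc (3.14), Pxdc1 (6.69), Atf3 (4.28), Bcl2a1b (1.40), Ube2l6 (2.56), Bpgm (1.75), Mgp (9.48), Ly86 (6.35), Cd200 (6.18), H2-Aa (2.16) and Ebf1 (3.13). It was below 0 for Ighm (-1.36), Cd24a (-3.35), Klf10 (-3.0), Dtx1 (-3.12), Cd86 (-2.82) and Wfdc21 (-7.76).

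Several of these rest on T cells alone. Ighm in T cells stood at 93.3 and 100 CPM in CSA3 and CSA4 and at 34.0 and 52.1 in BA, far under its level in B cells. Ly86, H2-Aa and Ebf1 reached at most 14.2, 10.0 and 26.3 in T cells. Mgp was at 871 in the T cells of BA2 but at most 9.91 in those of any other library. Wfdc21 was at 120 in the T cells of CSA4 and at most 0.526 in those of the others. Cd200 reached 11.3 and 30.5 in the T cells of BA1 and BA2 and at most 0.955 in those of CSA3 and CSA4. Pxdc1 was high in the T cells of CSA2, BA1 and BA2 (134, 90.6 and 92.1) and at 6.07, 7.18 and 4.77 in those of CSA1, CSA3 and CSA4. The part of free RNA or of other cells in these T cell values was not tested.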

How the results depend on the processing

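The counts of called genes depended on the libraries and the test. The count higher in CSA (125) became 63 with DESeq2, 45 at 1500 UMIs per cell, 283 by adjusted p alone, and 61 to 200 with each library left out. The count higher in BA (240) became 109, 118 and 401 in the same order, 117 with at most 5% mitochondrial UMIs, and 86 to 198 with each library left out. With all 6 libraries the counts were 77 and 155, and 31 to 106 and 27 to 202 when each was left out (68 and 138 without BA1, 136 in BA without BA2, 34 and 57 without CSA3, 31 and 27 without CSA4). CSA1 and CSA2 alone gave 5 and 4 at a median log2 fold change over all genes of -0.22. The count that differed between B and T cells (168) became 18 with those libraries, 53 with at most 5% mitochondrial UMIs, 56 at 1500 UMIs and 93 in cells with Xist and no Y-linked UMI. The share difference of B cells (-4.76) reversed to 0.131 points with at most 5% mitochondrial UMIs. The difference in the share with an immature gene (-4.43) became -15.0 with that limit, -9.55 at 3000 UMIs and -15.4 unthinned. It was -1.72 with at least 2 UMIs of each rule gene and -2.15 to -6.72 with each library left out. The share difference of B cells was -1.65 without BA1, -7.87 without BA2 and -7.98 with CSA1 and CSA2 alone. The causes were not tested.

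The 4 tested libraries share no replicate number, so a block was possible only with all 6, where it leaves CSA1 and CSA2 against BA1 and BA2. The deviations of CSA1 from the mean of CSA1 and CSA2 correlated at 0.085 with those of BA1 from the mean of BA1 and BA2, across 3375 genes. The value for BA2, -0.085, is fixed by that for BA1, since the deviations of BA1 and BA2 are opposite. CSA1 and CSA2 hold few B cells, so this value cannot decide whether the numbers pair the libraries. With the replicate block 12 genes were called higher in CSA and 14 in BA.

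Of 47 named genes called in the main comparison, 2 kept their call with CSA1 and CSA2 alone and 5 with the block. In these fits, in that order, the log2 fold change reversed to 1.3 and 1.45 for Acta2, 0.71 and 0.88 for Bcl2a1b, 0.31 and 0.46 for Bhlhe41, 0.019 and 0.23 for Ccr7, 1.99 and 2.10 for Cd274, 0.34 and 0.63 for Cd83, 1.70 and 1.81 for Egr1, 1.25 and 1.21 for Fos, 0.36 and 0.55 for Fosb, and 0.40 and 0.56 for Gla. Vpreb3, not called in the main comparison, turned to -2.44 and -2.27. It reversed with the block alone for Alas2 (-1.87), Bpgm (-5.38) and Irf4 (0.10). With all 6 libraries and 1 left out, it reversed for Fos (0.50 without BA2, 0.36 without CSA3, 0.55 without CSA4), Egr1 (0.70 without CSA3, 0.68 without CSA4) and Cd274 (0.26, 0.59 and 0.93 without BA2, CSA3 and CSA4). Fam220a reversed to -0.41 without cells over 3 times the median UMIs and to -0.47 without hemoglobin-rich cells. Mgp, not called (0.30), ranged from -6.96 to 1.05 with each library left out, reversed without CSA4, and reversed to -6.34 in cells with Xist and no Y-linked UMI. Of the 47, 34 kept their call with DESeq2, 44 with upper-quartile normalization, 31 with all 6 libraries and 39 in cells with Xist and no Y-linked UMI.

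Depth limits what CSA1 and CSA2 can show, with 46347 and 34685 UMIs in their B cells against 464419 to 732615 in the other 4 libraries. A count of 0 there allows a level of up to 64.7 and 86.5 CPM, by a floor of 3 counts.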
